A study of Mus musculus with 12 samples.

Results

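The genes described here belong to 6 families of plasma membrane and lysosomal amino acid transporters in mouse liver. They were taken by symbol, as the protein-coding genes of the count table whose name starts with Slc1a, Slc3a, Slc7a, Slc36a, Slc38a or Slc43a and a digit, which gave 42 of 41708 genes. One of the 42, Slc7a6os, is matched only because it is named after its neighbour Slc7a6. The table annotates its product with the Iwr1 transcription factor domain, so 41 of the 42 are transporter family genes. RNA was sequenced from whole livers of 12 mice on a C57BL6/J background, all fasted overnight for 16 h. The 5 control mice carried Ube4a flox/flox alleles, and the 7 knockout mice, Ube4a LKO, carried the same floxed alleles together with Albumin-Cre, which drives recombination in hepatocytes. Cells of the liver that do not express Albumin are not targeted by this driver, and which cells hold the remaining Ube4a RNA was not measured. Neither age nor sex of the mice is stated in the labels. The question of the comparison was how loss of Ube4a, a ubiquitin chain elongation factor, changes gene expression in the fasted liver.

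Hepatocytes take up amino acids from portal blood for gluconeogenesis, urea synthesis and protein synthesis, and in fasting alanine and glutamine released by muscle are main substrates. The SLC38 carriers move small neutral amino acids and glutamine with sodium, and the SLC1 family holds the glutamate carriers and the neutral exchangers ASCT1 and ASCT2. SLC7 proteins are cationic amino acid transporters or light chains that reach the membrane only as dimers with a heavy chain of the SLC3 family. Some SLC36 carriers use proton coupling, and SLC43 carriers use facilitated diffusion. Several of these genes are induced by the transcription factor ATF4 when amino acids are short, through a composite site that reads TGATGNAA in its core, and Slc7a11 is also induced by NRF2.

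A few promoters are shown because they hold a sequence match to the core site of one of these factors, whose binding was not tested. They belong to Slc38a2, an abundant member, to Slc7a1, one of the members with the smallest p, and to Slc7a11, whose paired sites are a textbook ATF4 target. Slc7a11 lies outside the rule for named genes and was chosen after its match was seen. Sequences are RefSeq's on GRCm38.p6, the 250 bases before the annotated start, 5′ to 3′ on the gene's strand, with matches in capitals.
Slc38a2, chr15:96699729-96699978, minus strand: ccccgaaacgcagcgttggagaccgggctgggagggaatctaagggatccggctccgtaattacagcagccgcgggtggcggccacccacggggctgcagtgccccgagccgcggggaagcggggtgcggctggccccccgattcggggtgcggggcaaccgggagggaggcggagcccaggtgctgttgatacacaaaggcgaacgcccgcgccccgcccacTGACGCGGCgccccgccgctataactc
Slc7a1, chr5:148399905-148400154, minus strand: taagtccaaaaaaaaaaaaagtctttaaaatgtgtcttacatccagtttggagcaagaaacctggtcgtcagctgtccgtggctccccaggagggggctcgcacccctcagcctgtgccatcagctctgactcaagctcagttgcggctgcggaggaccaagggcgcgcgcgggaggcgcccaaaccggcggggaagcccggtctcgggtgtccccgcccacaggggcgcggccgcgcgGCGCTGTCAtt
Slc7a11, chr3:50443614-50443863, minus strand: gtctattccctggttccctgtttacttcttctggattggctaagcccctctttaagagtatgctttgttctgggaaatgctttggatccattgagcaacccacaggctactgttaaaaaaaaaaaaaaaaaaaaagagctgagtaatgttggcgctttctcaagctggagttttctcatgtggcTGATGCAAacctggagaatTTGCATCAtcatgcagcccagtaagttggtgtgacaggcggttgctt
The capitals in Slc38a2 and Slc7a1 mark the NRF2 core TGACNNNGC, read on the gene's strand in Slc38a2 and on the opposite strand in Slc7a1. Those in Slc7a11 mark TGATGNAA on either strand, at -66 to -59 and -47 to -40 from the start. RefSeq promoters were found for 31 of the 42 genes, and some genes had several starts. Slc38a3, Slc7a2, Slc1a5 and Slc38a1 were among the genes without one, so they were not searched for either motif. TGATGNAA was in 3 of the 42 promoters found, of the 2 genes Slc7a11 and Slc7a7, and in 3.45% of all 32851 promoters of this length. TGACNNNGC was in 4 of the 42, of the genes Slc38a2, Slc7a1, Slc43a1 and Slc7a6, and in 10.2% of all promoters. Slc38a2 has no TGATGNAA in this window, and its known amino acid response element lies in the first intron, outside it. These promoters also differ in composition, with 30 CpG dinucleotides before Slc38a2, 21 before this start of Slc7a1 and 2 before Slc7a11, against a median of 6 over all promoters.

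Of the 42 genes, 24 had enough counts to be tested, 18 did not, and 5 of these 18 had no count in any liver. Slc7a6os is among the 24, so counts and medians over them include this gene, which is no transporter. Libraries held 13399874 to 16525053 counts. Ube4a, the check of the labels, measured 134 ± 11.6 CPM (normalised counts scaled to library size, SD, n = 5) in flox livers. In LKO livers it measured 26.6 ± 3.45 CPM (SD, n = 7), a log2 fold change of -2.33. The two-sided exact permutation p for Ube4a was 0.00126, the smallest that the 792 splits of the livers allow. On the first principal component, flox replicates 4 and 5 lay at 45.8 and 64.8, with the remaining 10 livers between -32.1 and 15.3. Markers of neutrophils and macrophages were high in these libraries, so the fold changes of the genes described in full, and the list medians, are also given without this pair. Albumin and the other hepatocyte markers, 5 of 6 of which were in the table, summed to 76663 to 109364 CPM in all livers.

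A few carriers made up most of the summed mRNA level of the 42 genes in the fasted liver, a sum that leaves out amino acid transporters of other families. Compared per length, as FPKM (fragments scaled to gene length and library size), Slc38a4, Slc38a3 and Slc7a2 together took 80.2% to 86.0% of the summed FPKM of the 42 genes, and they ranked in that order in all 12 livers. The whole sum was 938 ± 84.6 FPKM for the 5 flox livers and 845 ± 70.5 FPKM for the 7 LKO livers (SD), and the ranges, 808 to 1021 and 759.9 to 966, overlapped. Slc38a2 followed at a mean of 41.5 FPKM over all livers, below Slc7a2 and above Slc38a10 in every liver, while Slc3a1 exceeded it in flox replicate 5. Slc38a10, Slc1a2, Slc3a1 and Slc3a2 came next, at means of 17.6 to 21.8 FPKM. These last genes had no fixed order: Slc38a10 exceeded Slc1a2 in 6 of 12 livers, Slc1a2 exceeded Slc3a1 in 9, and Slc3a1 exceeded Slc3a2 in 6. A mean of at least 1 FPKM was reached by 15 of the 42 genes.

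**Figure D1:**
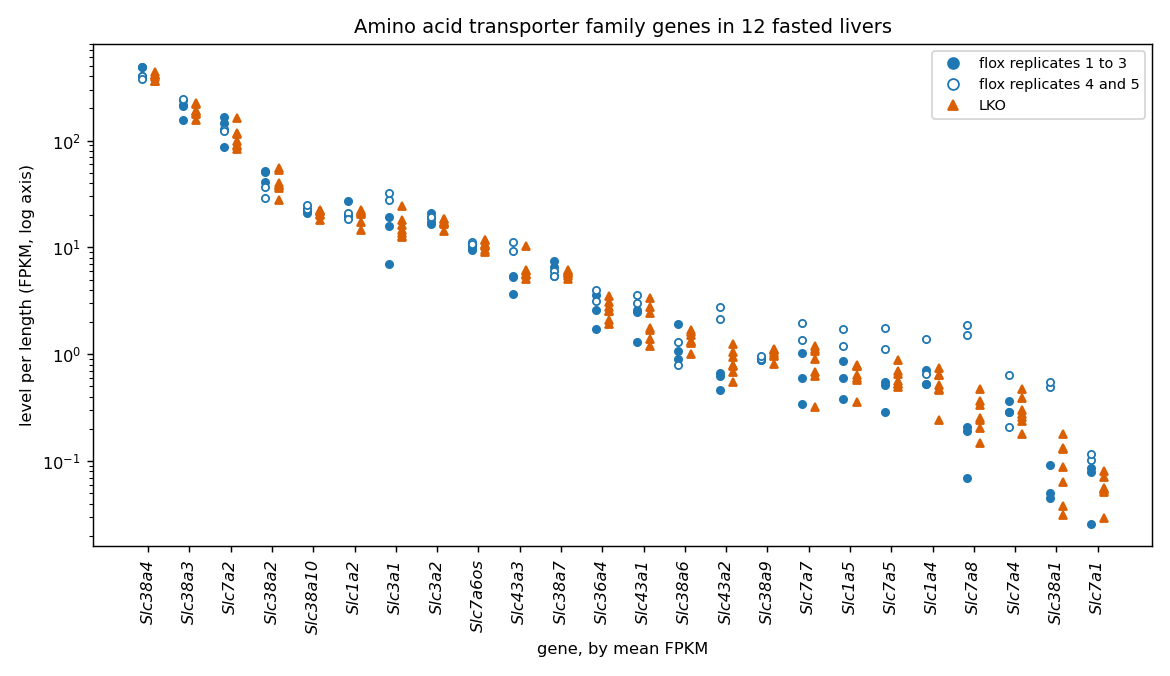
Level per length (FPKM, log axis) of the 24 tested genes in each of the 12 fasted livers, ordered by mean. Circles are flox livers, open for replicates 4 and 5, and triangles are LKO livers. The 3 highest genes hold 80.2% to 86.0% of the summed FPKM of the 42 genes in every liver, and groups overlap for every gene.

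Among the sodium-coupled SLC38 carriers, 8 of 11 were tested and 0 passed the threshold. Slc38a4, a liver-enriched carrier of neutral and cationic amino acids, measured 1605, 1938, 1938, 1603 and 1490.4 CPM in flox replicates 1 to 5, and 1423, 1627 and 1722 CPM at the lowest, median and highest of the LKO livers. The groups overlapped, with flox replicates 2 and 3 above every LKO liver. Its log2 fold change was -0.12 (SE 0.09, 95% confidence interval -0.31 to 0.08), adjusted p = 0.769 (Benjamini-Hochberg) by the quasi-likelihood test of edgeR. For Slc38a4 it was -0.21 (SE 0.10, adjusted p = 0.903 in edgeR) without flox replicates 4 and 5 and -0.07 without flox replicate 3. Slc38a3, the glutamine and histidine carrier of pericentral hepatocytes, measured 820.3, 1114, 1147, 1253 and 1276 CPM in flox livers and 815, 1002 and 1192 CPM in LKO livers. Flox replicates 4 and 5 were its highest livers, and the log2 fold change of Slc38a3, -0.15, was -0.02 without them and -0.25 without flox replicate 1. Slc38a2, the alanine carrier that amino acid shortage and glucagon induce, measured 233, 190.2, 243, 170.1 and 134 CPM in flox livers and 130.2, 179 and 258 CPM in LKO livers. Its groups covered nearly the same range, with means of 194 ± 44.7 and 192 ± 44.2 CPM (SD). The log2 fold change of Slc38a2 was -0.01 with all livers and -0.21 (SE 0.18, adjusted p = 0.944 in edgeR) without flox replicates 4 and 5, whose values were its lowest among the flox livers.

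Slc38a10 measured 135, 148, 143, 146 and 160.2 CPM in flox livers and 115, 141 and 144 CPM in LKO livers. All 7 LKO livers lay below its flox mean, while the groups overlapped, and its log2 fold change was -0.12 (SE 0.07, adjusted p = 0.701 in edgeR), or -0.08 without the pair. Slc38a9, the lysosomal arginine sensor that acts on mTORC1, measured 7.85, 8.49, 7.95, 7.99 and 8.53 CPM in flox livers and 7.32, 9.16 and 9.95 CPM in LKO livers. It was among 3 tested genes with a log2 fold change above 0 (0.15, SE 0.10, adjusted p = 0.729 in edgeR, and 0.16 without the pair), and 6 of the 7 LKO livers were above the flox mean. For the lysosomal glutamine exporter Slc38a7 the means were 25.3 ± 3.63 CPM (flox) and 23.5 ± 1.47 CPM (LKO, SD), and Slc38a6 4.81 ± 1.79 and 5.62 ± 0.972 CPM (SD). Slc38a5, a glutamine carrier with too few counts for the test, had 23 counts in flox replicate 1, at most 9 in any other liver and none in 5 livers.

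Slc38a1, Slc38a2 and Slc38a4 lie side by side on chromosome 15, all on the minus strand, at 101793165 to 101866867, 101919592 to 101932026 and 102257675 to 102320245 in the coordinates of the table, which follow the C57BL/6NJ annotation. No protein-coding gene lies between Slc38a1 and Slc38a2, 52.7 kb apart, and 1 lies between Slc38a2 and Slc38a4, 326 kb apart. Their mean levels over all livers were 0.158, 41.5 and 413 FPKM. Slc43a1 and Slc43a3 on chromosome 2 and Slc7a7 and Slc7a8 on chromosome 14 are further neighbours, with 1 and 15 protein-coding genes between them.

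**Figure D2:**
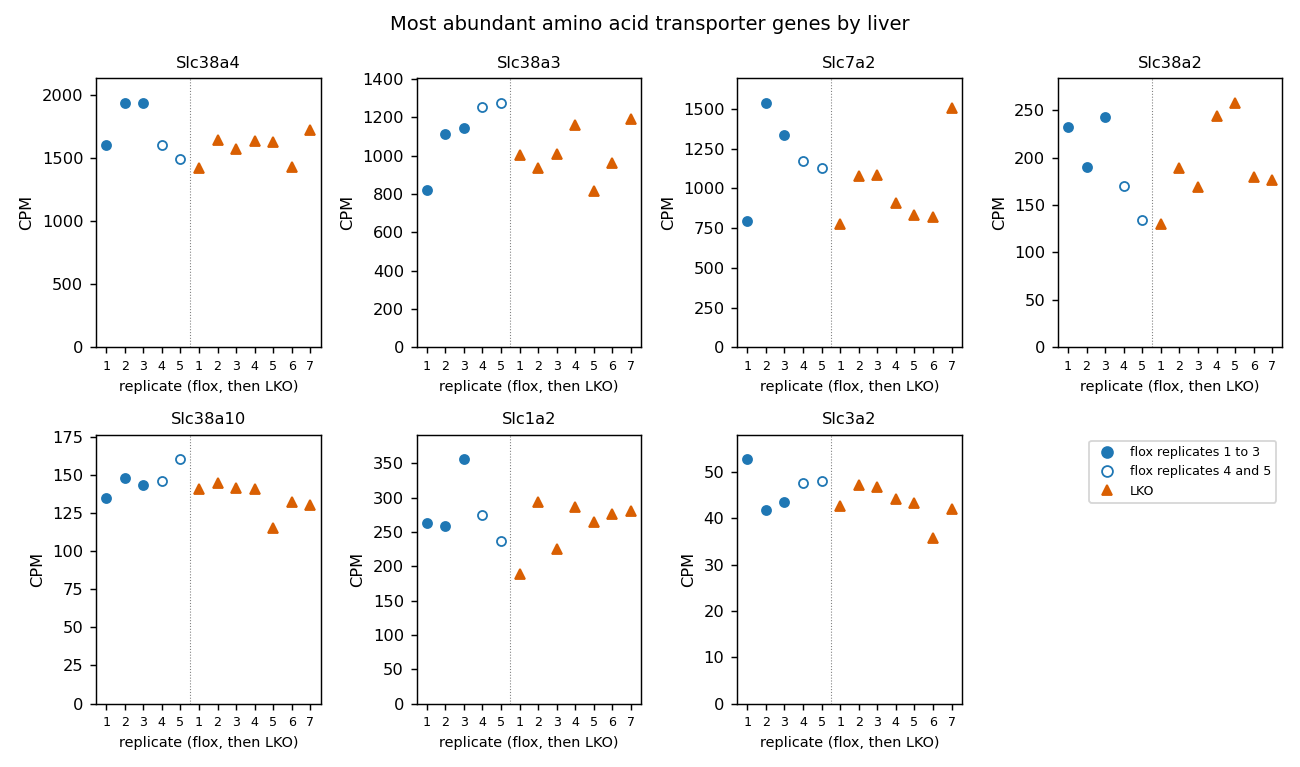
Normalised counts (CPM, linear axis from 0) of 7 of the 8 genes with the highest mean FPKM in each liver, flox replicates 1 to 5 on the left of the dotted line and LKO replicates 1 to 7 on the right. Flox and LKO livers overlap in each panel, and Slc7a2 reaches 1504 CPM in LKO replicate 7 with the other LKO livers at 775 to 1085 CPM.

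Arginine, lysine and ornithine carriers were represented by Slc7a2, the cationic transporter of hepatocytes. Slc7a2, on chromosome 8 from 41202746 to 41265100, measured 793, 1537, 1338, 1170.0 and 1127 CPM in flox livers and 775, 909 and 1504 CPM in LKO livers. Each group had a wide range, and flox replicate 1 lay near the low end of the LKO livers. The log2 fold change of Slc7a2 was -0.25 (SE 0.18, adjusted p = 0.754 in edgeR), and -0.39 without LKO replicate 7. Without flox replicates 4 and 5 it was -0.29, and without flox replicate 2 it was -0.16. Slc7a1, the transporter of the same substrates in most other tissues, had 0.300 to 1.34 CPM in flox livers and 0.338 to 0.925 CPM in LKO livers, from 5 to 22 counts a library. Flox replicates 4 and 5 had the most, 1.17 and 1.34 CPM. The log2 fold change of Slc7a1 was -0.52 (SE 0.35, adjusted p = 0.730 in edgeR), and -0.14 without those libraries. Slc7a3 had 6 counts over all 12 livers and Slc7a14 had 0.

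Among glutamate carriers, 1 of 5 was tested. Slc1a2, the sodium-dependent glutamate carrier of pericentral hepatocytes, measured 263, 258, 356, 275 and 237 CPM in flox livers and 188, 276 and 293 CPM in LKO livers. Flox replicate 3 was the highest liver and LKO replicate 1 the lowest, and the log2 fold change of Slc1a2 was -0.10 (SE 0.12, adjusted p = 0.868 in edgeR). That of Slc1a2 was -0.17 without flox replicates 4 and 5, -0.04 without LKO replicate 1 and 0.0083 without flox replicate 3. The other glutamate carriers, Slc1a1, Slc1a3, Slc1a6 and Slc1a7, had 2 to 27 counts over all 12 livers.

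The neutral exchangers were low. Slc1a5 (ASCT2), a glutamine exchanger, measured 1.56, 2.48, 3.59, 4.86 and 7.07 CPM in flox livers and 1.49, 2.64 and 3.25 CPM in LKO livers. Slc1a4 (ASCT1), an exchanger of alanine, serine and cysteine, measured 1.14, 0.849, 0.841, 1.05 and 2.19 CPM in flox livers and 0.387, 0.827 and 1.19 CPM in LKO livers. Flox replicate 5 was the highest liver for both genes. Log2 fold changes were -0.56 for Slc1a5 (SE 0.32, adjusted p = 0.701 in edgeR) and -0.52 for Slc1a4 (SE 0.32, adjusted p = 0.709 in edgeR), and without flox replicates 4 and 5 they were 0.08 and -0.15.

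Both heavy chains were expressed, while their light chains were scarce. Slc3a2 (CD98 heavy chain) measured 52.8, 41.7, 43.4, 47.6 and 48.1 CPM in flox livers and 35.8, 43.3 and 47.3 CPM in LKO livers, a narrow and overlapping range. Its log2 fold change was -0.12 (SE 0.08, adjusted p = 0.748 in edgeR), -0.09 without the pair and -0.07 without flox replicate 1. Per length, Slc3a2 stood at a mean of 17.6 FPKM, against 0.932 for Slc7a7, 0.715 for Slc7a5, 0.490 for Slc7a8, 0.0722 for Slc7a6 and 0.0300 for Slc7a11, its known partners. Slc3a1 stood at 17.8 FPKM, and Slc7a9, its partner in kidney and intestine, had 5 counts over all 12 livers. Slc7a13, a further partner of Slc3a1 in mouse kidney, had 4 counts. A level of RNA says nothing on the amount of the proteins, which was not measured.

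Slc3a1 varied most between livers among the genes above 10 FPKM, at 36.2, 16.2, 44.9, 64.4 and 73.6 CPM in flox livers and 29.2, 33.4 and 56.8 CPM in LKO livers. Flox replicate 2 was the lowest liver and flox replicates 4 and 5 the highest. The log2 fold change of Slc3a1 was -0.34 (SE 0.30, adjusted p = 0.805 in edgeR) and 0.19 without replicates 4 and 5. Slc3a1, on chromosome 17 from 91360806 to 91401268, overlaps Prepl on the opposite strand from 91400502, and reads of the overlap cannot be told apart where counting ignores strand, a setting that no source used here gives. Prepl measured 46.2 and 52.9 CPM in flox replicates 4 and 5 and 31.3 to 48.5 CPM in the other 10 livers. Slc7a7 likewise abuts the more abundant Oxa1l, which it overlaps on the opposite strand.

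No relation between heavy and light chain mRNA passed a test over the 10 livers without flox replicates 4 and 5. With log2 CPM of these 10 livers, Pearson's r of Slc3a2 was -0.0017 with Slc7a5, 0.283 with Slc7a7 and 0.154 with Slc7a8, and Spearman's rho was -0.0303, 0.406 and 0.248. The permutation p of r was 0.996, 0.432 and 0.672, and adjusted over the 3 pairs each was 0.996. Permutation p of rho was 0.946, 0.247 and 0.490 for the same pairs. Without the 2 livers farthest from the median of Slc3a2, r was 0.0379, 0.619 and 0.425. With all 12 livers, where flox replicates 4 and 5 lie high for the light chains, r was 0.289, 0.425 and 0.382, with permutation p of 0.353, 0.171 and 0.223. Spearman's rho was then 0.287, 0.594 and 0.448, with permutation p of 0.364, 0.04605 and 0.148. Adjusted over the 3 pairs, p of r was 0.353, 0.334 and 0.334, and p of rho was not adjusted. Leaving out of the 12 the 2 livers farthest from the median of Slc3a2 gave r of 0.550, 0.780 and 0.735, which were not tested.

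The LAT3 and LAT4 carriers Slc43a1 and Slc43a2 move branched-chain amino acids and phenylalanine by facilitated diffusion, and Slc43a3 is known in human cells as a nucleobase transporter. Slc43a2 measured 6.65, 6.30, 4.66, 21.6 and 27.9 CPM in flox livers and 5.55, 8.02 and 12.7 CPM in LKO livers. Flox replicates 4 and 5 lay above every LKO liver, flox replicates 1 and 2 in the lower part of the LKO range and flox replicate 3 below it. The log2 fold change of Slc43a2 was -0.63 (SE 0.42, adjusted p = 0.737 in edgeR) with all livers and 0.57 (SE 0.23, adjusted p = 0.903 in edgeR) without that pair. Slc43a3 measured 41.6 and 50.2 CPM in flox replicates 4 and 5 and 45.8 CPM in LKO replicate 1, against 16.4 to 27.7 CPM in the other 9 livers. Slc43a1 had group means of 14.7 ± 4.75 CPM (flox) and 11.9 ± 4.52 CPM (LKO, SD). Of the SLC36 family, Slc36a4 measured 4.502 ± 1.32 and 3.98 ± 0.814 CPM (SD). Slc36a2 and Slc36a3 had 0 counts in all livers, which allows up to 0.0166 CPM over the 12 libraries together, counting error only. Slc7a6os, which is no transporter, measured 15.8 ± 1.04 and 16.0 ± 1.56 CPM (SD), while Slc7a6, 1733 bases away and tail to tail with it, had at most 12 counts in a liver.

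No amino acid transporter gene passed the threshold between LKO and flox livers. In edgeR's quasi-likelihood test 0 of 24 had an adjusted p under 0.05, where 0.00793% of all 12615 genes tested did, Ube4a alone, and the smallest adjusted p of the 24 was 0.651. Limma voom with quality weights and limma on both FPKM scales also called 0 of the 24. DESeq2 called 0 of 21, since it gave no adjusted p for Slc1a4, Slc7a1 and Slc7a4. At an unadjusted p under 0.05 there were 2, Slc7a8 and Slc38a1, both lower in LKO livers and 0 higher, where 7.64% of all genes were under it, 4.15% lower and 3.49% higher. For 0 of the 24 did the groups not overlap, where 0.293% of all genes were higher and 0.190% lower in every LKO liver than in every flox liver. The 95% confidence interval of the log2 fold change reached a median of 0.51 to either side over the 24 genes. For Slc38a4 the interval covered folds of 0.806 to 1.05, and for Slc38a1 0.145 to 0.997.

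With all livers, 21 of the 24 genes, 87.5%, had a log2 fold change below 0, against 51.7% of all genes tested, and the median was -0.21 against -0.01. Without flox replicates 4 and 5, 12 of the 24 were below 0, 50.0%, against 49.0% of all genes, and the medians were 0.0018 and 0.0041. The sign changed for 9 of the 24. In that fit 0 of 24 passed in edgeR, against 0.00781% of all genes, 1 had an unadjusted p under 0.05, Slc43a2, against 5.27% of all genes, and the smallest adjusted p was 0.903.

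**Figure D3:**
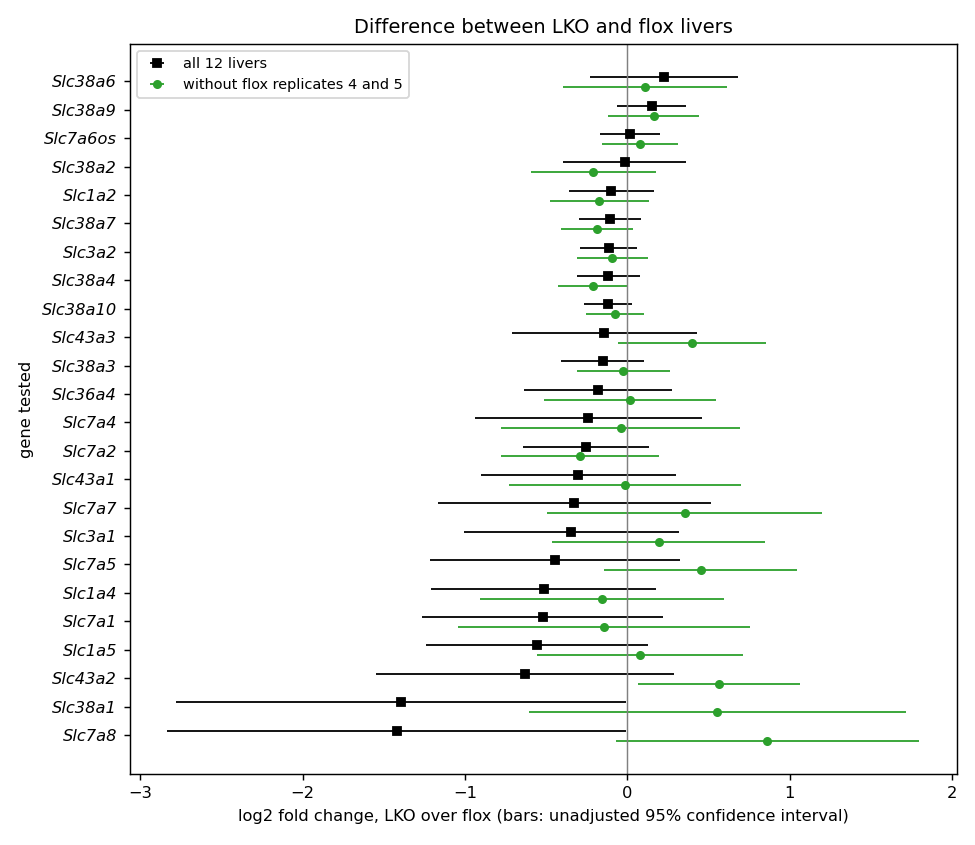
Log2 fold change, LKO over flox, of the 24 tested genes with unadjusted 95% confidence intervals, from edgeR with all 12 livers (squares) and without flox replicates 4 and 5 (circles). With all livers 21 of the 24 lie below 0, and without that pair 12 do.

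Of the 8 genes with the smallest p, 5 were higher in flox replicates 4 and 5 than in any other liver, and Slc7a8 and Slc38a1 had the smallest p of all. The p came from the same livers, so the count of 5 is no independent result. Slc7a8 (LAT2), a light chain for large neutral amino acids, measured 0.779, 0.283, 0.841, 6.15 and 7.498 CPM in flox livers and 0.594, 1.02 and 1.92 CPM in LKO livers. Slc38a1, a small neutral amino acid carrier of brain and of dividing cells, measured 0.779, 0.424, 0.382, 4.18 and 4.63 CPM in flox livers and 0.264, 0.737 and 1.496 CPM in LKO livers. For both genes flox replicates 1 to 3 lay within or below the range of the LKO livers. Log2 fold changes were -1.42 for Slc7a8 (SE 0.65) and -1.39 for Slc38a1 (SE 0.64), each with adjusted p = 0.651 in edgeR. Without flox replicates 4 and 5 they were 0.86 (SE 0.43, adjusted p = 0.903 in edgeR) and 0.55 (SE 0.54, adjusted p = 0.955 in edgeR).

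Both of these flox livers exceeded all other livers for 9 of the 24 genes, 37.5%, against 11.4% of all genes tested, and lay below all others for 0, against 6.64%. The 9 were Slc7a8, Slc38a1, Slc43a2, Slc7a5, Slc1a5, Slc7a7, Slc3a1, Slc7a1 and Slc38a3. Relative to the median of the other 10 livers, replicates 4 and 5 were 6.77 and 8.25 times as high for Slc7a8, 6.54 and 7.25 for Slc38a1, and 2.95 and 3.79 for Slc43a2. Slc7a5 (LAT1), the carrier of large neutral amino acids in activated lymphocytes and tumours, was at 2.08 and 3.21 times that median, and the macrophage-expressed Slc7a7 at 1.71 and 2.47. Slc38a3 was at 1.25 and 1.27, the least of the 9.

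Markers of other cell types moved in the same libraries. All 9 neutrophil markers were higher in flox replicates 4 and 5 than in any other liver, with summed levels of 279 and 439 CPM against 0.637 to 1.499 CPM in flox replicates 1 to 3 and 0.330 to 3.06 in LKO livers. All 7 macrophage markers did the same, at 358 and 509 CPM against 26.1 to 77.4 and 56.5 to 169.7 CPM, as did 5 of 6 sinusoidal endothelial markers (222 and 302 CPM against 63.9 to 79.4 and 53.3 to 197 CPM) and 4 of 6 stellate markers (233 and 340.1 CPM against 84.4 to 155 and 120.3 to 211 CPM). LKO replicate 1 held the highest macrophage, endothelial, stellate and erythroid sums of the LKO livers, while its neutrophil sum was 1.23 CPM. Among LKO livers it was the highest for Slc43a3 and Slc43a2, at 45.8 and 12.7 CPM. The same liver was the lowest of them for Slc1a5 and Slc3a1, at 1.49 and 29.2 CPM. Lymphocyte markers were higher in the pair for 2 of 6, at sums of 2.34 and 4.39 CPM against at most 2.45 CPM, cholangiocyte markers for 0 of 5 (44.2 and 49.2 CPM against 35.9 to 62.3 CPM), and erythroid markers for 0 of 3. No marker in these lists was at 0 in all livers. Their part in the levels of the transporter genes was not tested, and in whole liver RNA more cells of a type and more RNA per cell cannot be told apart.

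**Figure D4:**
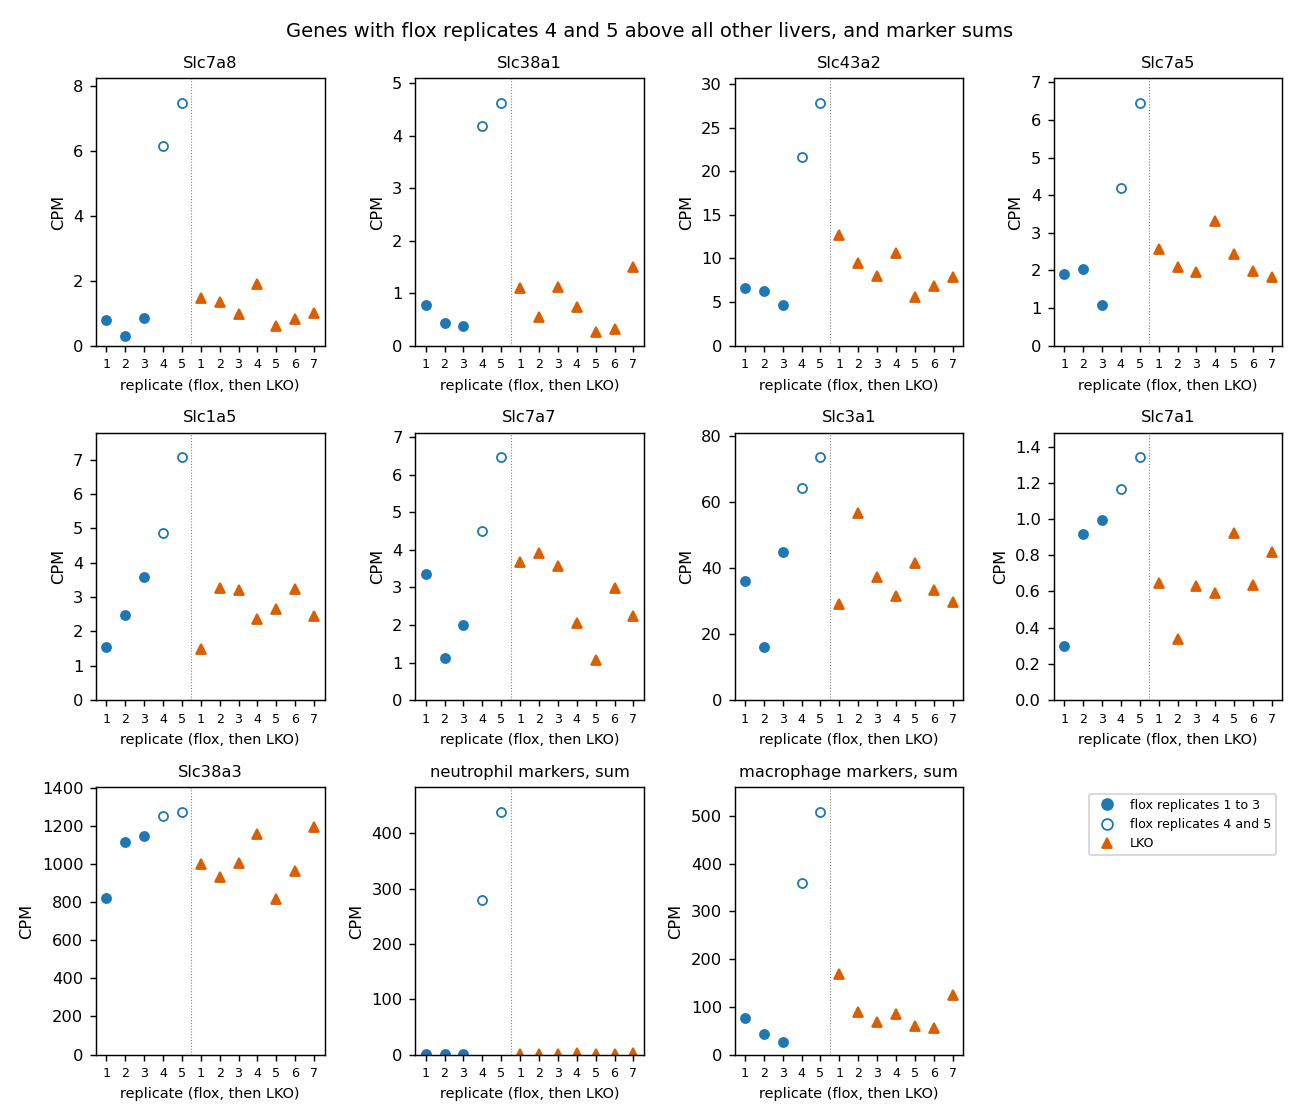
Normalised counts (CPM, linear axis from 0) by liver for the 9 tested genes that flox replicates 4 and 5 (open circles) exceed all other livers in, with the summed CPM of 9 neutrophil and 7 macrophage markers. The open circles stand at 6.77 and 8.25 times the median of the other 10 livers for Slc7a8 and at 1.25 and 1.27 times for Slc38a3.

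Other genes of amino acid handling also gave 0 calls between LKO and flox livers, in edgeR, DESeq2 and limma voom alike, with no adjusted p from DESeq2 for Mthfd2. Their counts can be read against the 51.7% of all genes below 0 and the 7.64% at an unadjusted p under 0.05, or the 49.0% below 0 without flox replicates 4 and 5. Of 20 tested genes of the ATF4 and amino acid response, 15 had a log2 fold change below 0, with a median of -0.16, and 1 had an unadjusted p under 0.05, while 14 of 20 were below 0 without the pair, with a median of -0.14. That gene was Ddit4, which restrains mTORC1, with means of 36.6 ± 24.3 CPM (flox) and 20.04 ± 6.03 CPM (LKO, SD). Its log2 fold change was -0.87, or 0.03 once flox replicates 4 and 5 were left out. Ppp1r15a, a regulatory subunit of the phosphatase of eIF2α, had a log2 fold change of -0.26, and -0.36 without the pair. Slc7a11, the cystine exchanger and ATF4 target shown above, had 2 to 11 counts a liver and was not tested.

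Amino acid transporters of other families numbered 16 tested, with 12 below 0, a median log2 fold change of -0.05 (-0.04 without the pair) and 0 at an unadjusted p under 0.05. The smallest p there were those of the mitochondrial carriers Slc25a29 (7.03 ± 1.03 and 5.57 ± 1.32 CPM) and Slc25a12 (27.4 ± 4.26 and 24.1 ± 4.72 CPM, SD). Genes of amino acid sensing by mTORC1 had a median of -0.04 over 31 tested, both with and without the pair, and 19 were below 0 (20 without it), with 4 at an unadjusted p under 0.05. Of these, Tfe3, a transcription factor of lysosomal genes, measured 35.0 ± 5.17 and 28.5 ± 2.36 CPM and Itfg2, a subunit of the KICSTOR complex, 8.61 ± 0.913 and 10.7 ± 1.41 CPM (SD). Urea cycle and amino acid catabolism had a median of 0.05 over 34 tested (0.04 without the pair), and 11 were below 0 (10 without it), with 2 at an unadjusted p under 0.05. Otc, the ornithine transcarbamylase of the urea cycle, measured 189.9 ± 35.1 and 271 ± 50.6 CPM (SD, log2 fold change 0.51, adjusted p = 0.505 in edgeR). Without the pair that of Otc was 0.36, and that of Oat, ornithine aminotransferase, was 0.30 with all livers and 0.43 without it.

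Markers of the liver lobule were read because Slc1a2 and Slc38a3 are pericentral genes. Pericentral genes were above 0 for 9 of 10 tested, with a median of 0.16, and for 5 of 10 without flox replicates 4 and 5, with a median of -0.02. Periportal genes were above 0 for 5 of 10 and, without the pair, 6 of 10, with a median of 0.02 in both. Log2 fold changes of those named by p were 0.98 for the pericentral Rgn and 0.60 and 0.35 for the periportal Cyp2f2 and Hal, and without the pair 0.66, 0.47 and 0.31.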

How the data were processed

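Per the file headers, the deposited data are whole-number counts and FPKM values by gene, in 1 column for each liver. The build GRCm39, featureCounts 1.5.0-p3, HISAT2 2.0.5, CASAVA 1.8, DESeq2 1.20.0 and fastp are named, per the submitters' processing notes. The gene identifiers are those of the C57BL/6NJ annotation, so coordinates of genes are as in the table, and RefSeq promoters on GRCm38.p6 were matched by symbol only. Libraries were made with NEBNext Ultra RNA from TRIzol extracts, per the labels' protocols. Strand setting, treatment of shared reads and filters were not given in the sources used here.

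Genes with about 10 counts in at least 5 livers were kept (filterByExpr, total of at least 15), leaving 12615 genes, on which TMM factors were computed. Groups were compared with edgeR 4.0.16 (glmQLFit, robust, and glmQLFTest) in R 4.3.3 without covariates, and p-values were adjusted over all genes tested with a threshold of 0.05. Fold changes are LKO over flox. Standard errors are the fold change over the root of the F statistic. CPM uses the scaled sizes, and log2 CPM a prior count of 2. Alternatives used RLE scaling, library totals, 2 other filters, DESeq2 1.42.0, limma 3.58.1 (voom with quality weights, and log2(FPKM + 0.1) and log2(FPKM + 1)), a block on the replicate number, and each liver left out. The code was tested on simulated counts. There DESeq2 made more false calls than the limit first set for all tools, and its limit was then loosened.

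The labels list separate mice with no litter or batch, and every pair of livers in a group differed by more than counting noise (chi-square over its degrees of freedom from 9.07 to 94.0). Flox replicates 4 and 5 were the most alike pair, at 9.07, and the next was LKO replicates 2 and 3 at 14.9. Members, lists and tests were chosen with earlier results of these data known, including that flox replicates 4 and 5 stand apart. The genes given in full were the 8 tested members with the highest mean FPKM and the 8 with the smallest p, which share 1, and 2 genes of each list by p. Slc36a1 is not analysed here.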

Additional observations from a re-analysis of the deposited data

Results flagged for a closer look

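In 3 of 32 sets of values, 1 liver lay far from the others of its group for its size, where chance alone gives about 1 in 20 for independent sets. These sets share the same livers, and some of their genes were chosen by p. The count therefore cannot show an excess over that rate. Slc7a2 was at 1504 CPM in LKO replicate 7, with the other 6 LKO livers at 775 to 1085 CPM. Ube4a was at 34.0 CPM in the same liver, with the others at 23.2 to 26.8 CPM, all far below the flox livers. Slc1a4 was at 2.19 CPM in flox replicate 5, with the other flox livers at 0.841 to 1.14 CPM, on at most 36 counts in a library, and its log2 fold change of -0.52 was -0.20 without that liver.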

How the results depend on the processing

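The count of 0 amino acid transporter genes called held under all alternatives run, with 3 of the 24 tested genes given no adjusted p by DESeq2. Over all genes, 1 gene was called with all livers in edgeR, 22 by DESeq2, and 1 to 2 with each liver left out in turn, 2 without LKO replicate 7. The calls of DESeq2 are to be read with its false calls on simulated counts. The median log2 fold change of the 24 tested genes, Slc7a6os included, ran from -0.33 to -0.14 with each liver left out. It was 0.0018 once flox replicates 4 and 5 were omitted, an alternative added after seeing the data. Under that choice 9 of the 24 changed sign, and among the genes described in full the log2 fold change reversed for Slc3a1 (0.19), Slc7a8 (0.86), Slc38a1 (0.55), Slc1a5 (0.0774) and Slc43a2 (0.57). That of Slc38a2, -0.01, was 0.0496 with voom quality weights, 0.0071 with the replicate block, -0.13 to 0.0795 with each liver left out and -0.21 without flox replicates 4 and 5. For Slc1a2 it ran from -0.16 to 0.0083 with each liver left out and was -0.17 without flox replicates 4 and 5. With all 12 livers r of Slc3a2 with Slc7a5 was 0.289, and rho of Slc3a2 with Slc7a7 was 0.594. The labels give no pairing of livers by number. Same-numbered livers did not deviate together (correlations -0.289 to 0.104), but correlations between single livers cannot exclude a shared litter or batch. The replicate block on replicates 1 to 5, which leaves out LKO replicates 6 and 7, called 1 gene and 0 transporter genes. The cause of these shifts was not tested. Intervals of Slc7a1 (SE 0.35) and Slc38a1 (SE 0.64) were too wide to resolve a log2 fold change as small as the -0.12 of Slc38a4. That of Slc38a4 did not pass the threshold either. Width did not follow counts alone: over all livers Slc7a1 had 140 counts, Slc38a1 250 and Slc43a2 (SE 0.42) 1972.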
